A study of Mus musculus with 4 samples.

Results

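The genes of 3 matrix and adhesion families, the collagens, the laminins and the integrins, were followed together with thrombospondins 1 to 4 and the tenascins Tnc and Tnr across the cell states of the early postnatal dorsal ventricular-subventricular zone (V-SVZ), the germinal layer along the dorsal wall of the lateral ventricle. Members were all genes whose symbol fits the naming pattern of these families and that had at least 20 UMIs (unique molecular identifiers, 1 per captured RNA molecule) over all 4 libraries. The pattern matched 83 symbols and 77 were kept, of 18586 genes with that many UMIs. Just inside the limit lay Col6a4 with 20 UMIs, and just outside it Col6a6 with 19, Col13a1 with 16, Col14a1 with 15, Itgax and Col6a5 with 12 each and Itgb6 with 1. The cells came from OF1 wild-type mice at postnatal days 2, 12 and 22 (P2, P12 and P22), with no transgene, deletion or treatment in any group, and were profiled by 10x droplet sequencing. There was 1 library at P2, 2 at P12 (replicates 1 and 2) and 1 at P22, and the methods state that the tissue of 2 mice was pooled for a time point, and cells were not assigned to an animal here. All mice are labelled male, though the methods say that a female was found among those of P2, so that P2 and P22 differ in part by sex.

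Collagens and laminins are secreted as trimers of chains. Type IV collagen and the laminins build the sheet-like basement membrane around vessels and under the pia, fibrillar collagens such as types I and III form fibres, and fibril-associated collagens such as types IX, XII and XVI attach to them. Integrins are the cell's receptors for this matrix, each 1 alpha and 1 beta chain: alpha1, alpha2, alpha10 and alpha11 with beta1 bind collagens, alpha3, alpha6 and alpha7 bind laminins, and alphav, alpha5 and alpha8 bind proteins with an RGD motif such as fibronectin. Thrombospondins and tenascins are secreted glycoproteins that modulate adhesion, and tenascin-C is long known from neural stem cell niches.

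The libraries held 66743936 (P2), 106402687 and 80386488 (P12) and 65323423 (P22) UMIs, and 4027, 7006, 4596 and 4231 cells were kept, each with between 2000 and 8000 genes detected and with no more than 10% of its UMIs from mitochondrial genes. Pairs of libraries shared 5 to 12 cell barcodes. Members and their pathway partners were held out of the genes used for clustering. Clusters were named from marker lists as quiescent neural stem cell-like (qNSC-like), activated neural stem cell-like (aNSC-like, led by S-phase genes such as Mcm2), transit-amplifying progenitor-like (TAP-like, led by histone and mitotic genes), astrocyte-like, ependymal-like, oligodendroglial-like, glutamatergic and GABAergic neuroblast-like, endothelial-like and microglia-like. The endothelial-like cluster is mixed: by the marker gates described further on, 12 and 26 of its 18 and 29 P12 cells were endothelial-like and 6 and 3 mural-like. Its leading genes include the haemoglobin genes Hbb-bs, Hba-a1 and Hbb-bt. The gates hold no erythroid list, and the part of blood cell RNA in its values was not tested. Of the qNSC-like clusters 2 were called pallial and 1 subpallial by regional genes such as Emx1 and Gsx2. Clusters 4 (led by Igf1 and Cck), 9 (led by Olig1 and Olig2) and 10 (a shallow cluster) stayed unnamed. Levels are CPM, the UMIs of a gene summed over a class in 1 library and scaled to the same total for every class and library, and they compare classes for 1 gene, not genes with each other.

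Members took a small share of the RNA, and that share differed between classes. At P12 it was 0.175% and 0.213% of the UMIs of qNSC-like cells in replicates 1 and 2, 0.0539% and 0.0748% in aNSC-like cells, and 0.0443% and 0.0612% in TAP-like cells. Astrocyte-like cells stood at 0.161% and 0.213% and ependymal-like cells at 0.191% and 0.218%. The endothelial-like cluster held 0.601% and 0.767% from 18 and 29 cells. Thbs4 alone made up 32.9% and 29.4% of the members' UMIs in qNSC-like cells and 43.1% and 37.6% in ependymal-like cells, against 6.22% and 6.26% in aNSC-like cells.

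By role, the secreted glycoproteins and some integrin beta chains were the most counted members. Over all 4 libraries Thbs4 had 65377 UMIs, Itgb1, the beta chain shared by most matrix integrins, 47732, Tnc 23608, and Itgb8 and Itgb5, both partners of alphav, 20900 and 15155. Among fibril-associated collagens Col9a3 had 13278 UMIs, and among laminins Lamb2, Lama2 and Lamc1 had 9394, 5792 and 5275. Other members were close to the limit of counting. Of the 77 members, 40 to 52 passed the filter on low counts in each tested comparison below. Those that passed in none included Col3a1, Col6a1, Col6a4, Col8a1, Col10a1, Col15a1, Col19a1, Col24a1, Lama1, Lama3, Lamc3, Itga11, Itgb2, Itgb3 and Itgb7. For several of them the cells that carry the RNA are named further on.

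**Figure D1:**
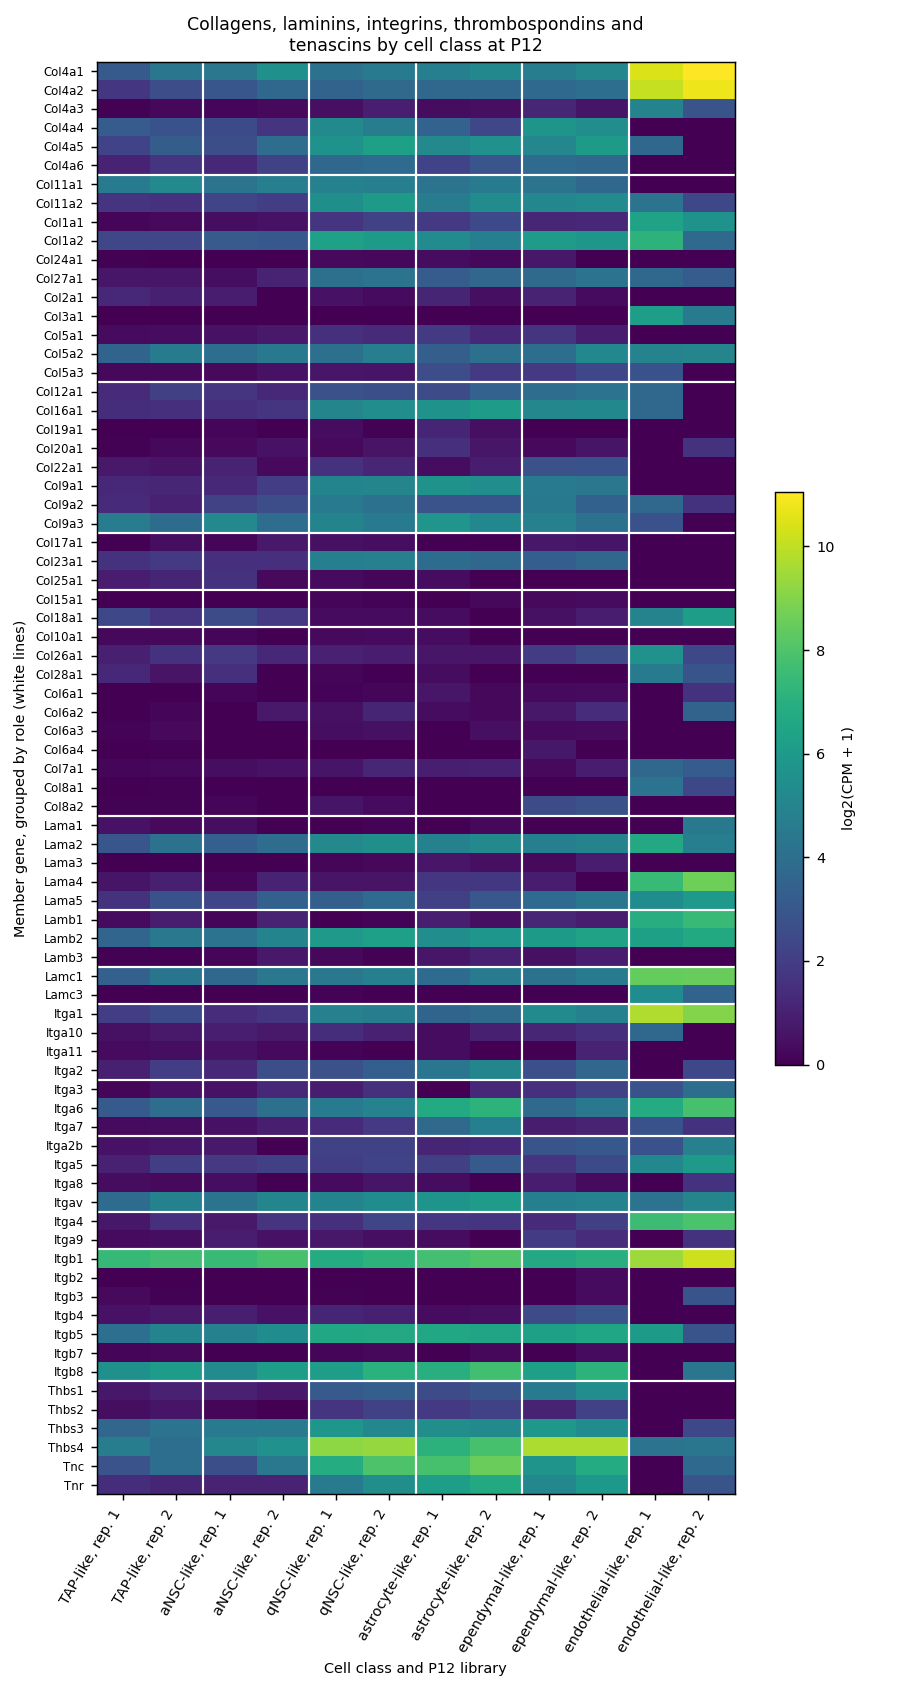
Levels of members as log2(CPM + 1) in 6 cell classes at P12, each with both libraries side by side (columns), members grouped by role between white lines (rows). The endothelial-like columns are brightest for Col4a1, Col4a2, Itga1, Lama4, Lamb1 and Lamc1, and Thbs4 and Tnc are bright in qNSC-like, astrocyte-like and ependymal-like columns.

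The type IV collagen chains fell into 2 kinds of pattern. Col4a1 and Col4a2, the pair of chains found in nearly all basement membranes, were at 1422 and 2129 CPM and at 1099 and 1760.2 CPM in the endothelial-like cluster of P12 replicates 1 and 2, and in qNSC-like cells at 16.9 and 22.4 CPM and at 10.4 and 13.1 CPM. In the cells of that age found by the endothelial-like gate alone, Col4a1 was at 903 and 1813 CPM. Col4a5 and Col4a6, chains known from specialised basement membranes, had at most 2 UMIs in each P12 library of that cluster and were higher in qNSC-like and ependymal-like cells. Col4a5 stood at 50.3 and 76.5 CPM in qNSC-like cells, against 2 and 0 UMIs in endothelial-like cells, and Col4a6 at 11.8 and 13.7 CPM against 0 UMIs in both. In ependymal-like cells they were at 34.1 and 64.0 CPM and at 13.6 and 12.4 CPM, and in aNSC-like cells at 5.34 and 14.5 CPM and at 1.34 and 3.46 CPM. Cells of the endothelial-like gate alone held 1 and 5 Col4a5 UMIs at P12 (7.59 and 10.0 CPM, within the range of aNSC-like cells) and 0 Col4a6 UMIs. In replicate 1 a count of 3 in the endothelial-like cluster would have been 17.6 CPM. That is above the Col4a6 level of qNSC-like cells, so the 0 UMIs there do not separate the classes. The third pair did not share a place: Col4a4 stood at 36.7 and 23.9 CPM in qNSC-like cells with 0 UMIs in endothelial-like cells (a count of 3 would have been 17.6 and 6.33 CPM), while Col4a3 reached 0.374 and 0.923 CPM in qNSC-like cells and 5 and 3 UMIs in the endothelial-like ones. At P22, where the endothelial-like cluster has 17 cells, it also held 46 Col4a5, 7 Col4a6 and 8 Col4a4 UMIs. A single fibroblast-like cell described further on carries 46 Col4a5 UMIs.

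These genes lie head to head in pairs, and their promoters are shown because the members of a pair start side by side. RefSeq windows (GRCm38.p6) of 300 bases, from 250 before to 50 after the start, matched 57 of the 77 members and 5 of the 6 type IV genes (Col4a3 has no entry). The starts of Col4a1 and Col4a2 lie 21 bases apart on opposite strands, so that their windows overlap by 78 bases, and those of Col4a5 and Col4a6 lie 1343 bases apart. In the gene annotation of build GRCm38, Col4a3 and Col4a4 overlap by 114 bases at their 5′ ends. Capitals mark the CCAAT box (CCAAT, or ATTGG on the other strand) and the GC box (GGGCGG, or CCGCCC on the other strand).
Col4a1, chr8:11312777-11313076, minus strand: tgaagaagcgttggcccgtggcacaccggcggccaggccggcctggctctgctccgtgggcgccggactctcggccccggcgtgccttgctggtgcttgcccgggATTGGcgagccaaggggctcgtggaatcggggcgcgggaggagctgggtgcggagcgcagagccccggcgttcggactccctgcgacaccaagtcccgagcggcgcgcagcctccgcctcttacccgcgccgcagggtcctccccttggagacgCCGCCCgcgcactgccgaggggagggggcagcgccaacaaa
Col4a2, chr8:11312555-11312854, plus strand: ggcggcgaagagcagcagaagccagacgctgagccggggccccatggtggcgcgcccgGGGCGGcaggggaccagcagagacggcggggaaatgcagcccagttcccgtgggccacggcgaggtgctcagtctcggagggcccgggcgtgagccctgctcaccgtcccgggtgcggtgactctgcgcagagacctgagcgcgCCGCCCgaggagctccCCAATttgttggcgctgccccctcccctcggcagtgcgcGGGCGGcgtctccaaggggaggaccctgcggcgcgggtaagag
Col4a4, chr1:82586800-82587099, minus strand: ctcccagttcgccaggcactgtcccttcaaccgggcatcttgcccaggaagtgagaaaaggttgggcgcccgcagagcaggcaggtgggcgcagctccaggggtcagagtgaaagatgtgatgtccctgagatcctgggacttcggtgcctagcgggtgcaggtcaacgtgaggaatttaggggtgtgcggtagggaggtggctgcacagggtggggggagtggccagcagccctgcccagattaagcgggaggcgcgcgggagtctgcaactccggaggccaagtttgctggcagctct
Col4a5, chrX:141475169-141475468, plus strand: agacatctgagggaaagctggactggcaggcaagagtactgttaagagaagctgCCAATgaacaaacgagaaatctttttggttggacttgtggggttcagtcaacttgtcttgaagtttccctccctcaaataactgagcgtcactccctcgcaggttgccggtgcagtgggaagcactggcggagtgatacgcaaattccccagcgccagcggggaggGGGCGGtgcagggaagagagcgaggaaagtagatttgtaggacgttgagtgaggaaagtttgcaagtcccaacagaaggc
Col4a6, chrX:141474027-141474326, minus strand: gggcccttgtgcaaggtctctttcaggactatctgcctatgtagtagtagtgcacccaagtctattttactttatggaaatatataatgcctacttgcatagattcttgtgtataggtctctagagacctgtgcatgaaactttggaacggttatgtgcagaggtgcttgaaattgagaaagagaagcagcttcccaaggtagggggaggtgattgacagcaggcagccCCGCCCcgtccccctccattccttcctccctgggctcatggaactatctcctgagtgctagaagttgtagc

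The CCAAT box was found in the Col4a1, Col4a2 and Col4a5 windows and in 37.4% of 32544 RefSeq windows of the same length. The GC box was found in 4 of the 5 windows, all but that of Col4a4, and in 35.9% of all windows. None of the 5 held TATAAA or TTTATA, found in 13.6% of all windows. Over the 63 windows of all matched members, 18 held the CCAAT box, 36 the GC box and 7 TATAAA or TTTATA.

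At P12, aNSC-like cells (448 and 161 cells) were set against qNSC-like cells (3381 and 2525 cells). The aNSC-like class is led by S-phase genes. It also held Dlx2 at 107 CPM, a gene that the paper's definition of aNSCs excludes. Activation thus cannot be told apart from DNA replication or from progenitors further along in this comparison. Most members were lower in aNSC-like cells. Of 50 members tested 34 fell and 4 rose (adjusted p under 0.05, edgeR quasi-likelihood test, library as block), where 34.5% of all 14700 genes tested fell and 33.2% rose. The median log2 fold change was -1.46 for the members and -0.05 for all genes. With cells chosen by the marker thresholds of the methods, 3 of 43 members rose and 31 fell, where 4628 of 13677 genes rose and 4172 fell.

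All 6 thrombospondins and tenascins fell. Thbs4, a secreted thrombospondin known from astrocytes of this niche, stood at 33.5 and 46.8 CPM in aNSC-like cells, against 577 and 627 CPM in qNSC-like cells (log2 fold change -3.96 ± 0.13 SE, adjusted p = 5.2e-20, edgeR). Tenascin-C (Tnc) stood at 5.23 and 20.7 CPM against 114 and 252 CPM (-3.99 ± 0.16, adjusted p = 4.5e-18). Tenascin-R (Tnr) was at 1.11 and 1.15 CPM in aNSC-like cells and at 22.3 and 42.9 CPM in qNSC-like cells (-4.70 ± 0.26, adjusted p = 6.7e-15). The lowest qNSC-like library thus lay above the highest aNSC-like one for each of the 3. Thbs1, an activator of latent TGFβ, Thbs2 and Thbs3 fell too, with log2 fold changes of -3.21, -5.09 and -1.03. Thbs2 had 1 UMI in aNSC-like cells over both libraries, and its log2 fold change was -4.10 without replicate 2 and -7.16 without replicate 1, the last set against 0 UMIs and so dependent on the prior count of the fit. Endothelial-like cells held Thbs4 at 17.6 and 19.0 CPM (3 and 9 UMIs), and the 10 microglia-like cells of replicate 2 at 204 CPM (36 UMIs).

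Collagens of several types fell together. Of the fibrillar ones, Col1a2 was at 7.91 and 7.15 CPM in aNSC-like cells, against 79.2 and 63.8 CPM in qNSC-like cells (log2 fold change -3.28 ± 0.16, adjusted p = 3.6e-16). Col11a2 stood at 4.01 and 3.00 CPM, against 44.7 and 63.6 CPM (-3.83 ± 0.20, adjusted p = 1.6e-15), and its log2 fold change was -4.44 without replicate 1. Col1a1, Col5a1 and Col11a1 fell by 2.82, 1.69 and 0.38 on the log2 scale, and Col27a1, at 0.334 and 1.15 CPM against 16.1 and 17.4 CPM, by 4.76 (5.49 without replicate 2, 3.94 without replicate 1). Among fibril-associated collagens, Col16a1 (1.89 and 2.31 CPM against 31.7 and 41.7 CPM) and Col9a1 (1.45 and 3.00 CPM against 30.6 and 31.3 CPM) fell by 4.13 and 3.96. Col9a2, Col12a1 and Col22a1 fell by 2.30, 1.56 and 1.17 (Col22a1 by 2.43 without replicate 1). Col9a3, at -0.16, did not pass. The transmembrane Col23a1 was at 1.89 and 1.84 CPM against 26.7 and 27.1 CPM (-3.85 ± 0.24, adjusted p = 6.6e-14). The basement membrane chains Col4a4, Col4a5 and Col4a6 fell by 3.12, 2.83 and 2.59, Col4a2 (-0.43, adjusted p = 0.065) did not pass, and Col4a1 rose by 0.61.

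Laminin chains and most integrin chains were lower as well. Lama2, Lama5, Lamb2 and Lamc1 were lower in aNSC-like cells, with log2 fold changes of -1.80, -0.88, -1.58 and -0.57. The collagen receptor chain Itga1 stood at 1.67 and 2.31 CPM in aNSC-like cells, against 26.9 and 24.6 CPM in qNSC-like cells (-3.79 ± 0.25, adjusted p = 1.5e-13). Itga2, another collagen-binding chain, had -1.36 (-2.07 without replicate 2). The laminin receptor chains Itga6 and Itga7 had -1.21 and -1.65, and the RGD-binding Itgav and Itga2b -0.57 and -2.96 (Itga2b -7.11 without replicate 1, which leaves an aNSC-like library with 0 UMIs, and -2.29 without replicate 2). Itga4 had -1.08. Of the beta chains, Itgb5 stood at 28.2 and 40.6 CPM in aNSC-like cells against 97.4 and 99.8 CPM in qNSC-like cells (-1.58 ± 0.13), and Itgb8, which with alphav binds latent TGFβ, had -0.88, with ranges that overlap. Itgb1 moved the other way, at 181 and 227 CPM against 109 and 143 CPM (0.68 ± 0.11, adjusted p = 3.6e-06).

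The other members that rose were Col18a1, the collagen from which endostatin is cut, Col4a1 and Col26a1. Col18a1 stood at 4.90 and 2.54 CPM in aNSC-like cells, against 0.259 and 0.268 CPM in qNSC-like cells (log2 fold change 3.78 ± 0.47, adjusted p = 5.2e-08, and 3.08 without replicate 1). Col26a1 was at 2.56 and 1.38 CPM against 1.01 and 0.804 CPM (1.13 ± 0.44, adjusted p = 0.024). Col4a1 was at 19.8 and 45.9 CPM against 16.9 and 22.4 CPM, with overlapping ranges. With cells chosen by the marker thresholds of the methods in place of clusters, Col4a1 had -0.066 and Col11a1 0.071. CPM are shares of a cell's RNA, and aNSC-like cells held 20047 and 26941 UMIs per cell, against 10275 and 13296 in qNSC-like cells. In UMIs per cell, 28 of the 38 calls kept their direction, and those that did not were Lamc1, Lama5, Itga2, Itga4, Itga6, Itgav, Itgb8, Thbs3, Col11a1 and Col22a1.

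**Figure D2:**
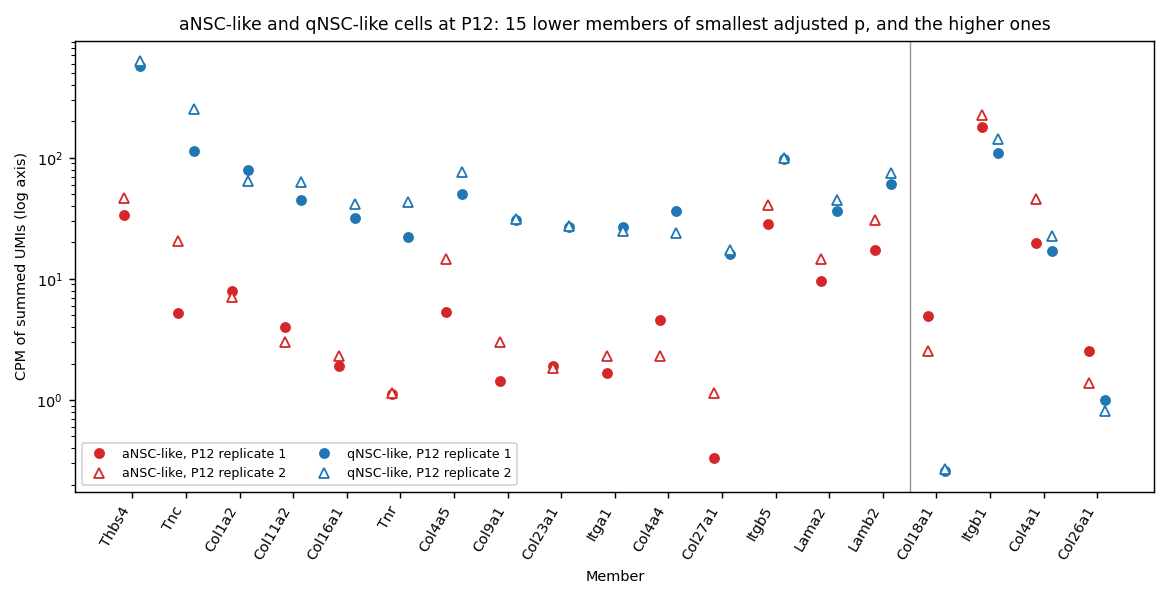
CPM of summed UMIs (log axis) in aNSC-like (red) and qNSC-like (blue) cells at P12, 1 point per library (circles replicate 1, triangles replicate 2), for the 15 members lower in aNSC-like cells with the smallest adjusted p (left of the line) and the 4 higher ones (right). Each of the 15 is lower in both aNSC-like libraries than in both qNSC-like libraries, from Thbs4 (33.5 and 46.8 against 577 and 627 CPM) to Lamb2, and of the 4 higher members Col4a1 alone has overlapping groups.

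Between the aNSC-like and TAP-like clusters (1348 and 518 TAP-like cells) fewer members differed. The aNSC-like class is led by S-phase genes and held Dlx2, and the TAP-like class is led by histone and mitotic genes. A step in lineage thus cannot be told apart from cell cycle phase in this comparison. Of 40 tested 3 were higher and 8 lower in TAP-like cells, where 16.7% of all genes tested were higher and 14.9% lower, and the median log2 fold change was -0.07 for members and -0.02 for all genes. The pair Col4a1 and Col4a2 was lower. Col4a1 stood at 7.73 and 19.3 CPM in TAP-like cells, against 19.8 and 45.9 CPM in aNSC-like cells (log2 fold change -1.14 ± 0.15, adjusted p = 4.6e-05, edgeR), and Col4a2 at 2.38 and 5.05 CPM against 6.68 and 11.8 CPM (-1.19 ± 0.25, adjusted p = 0.0025). Thbs4, Thbs3, Col9a2, Col1a2, Lamb2 and Itgb5 were lower by 0.82, 0.56, 1.40, 0.71, 0.46 and 0.48 on the log2 scale (without replicate 1, Thbs4 by 1.5 and Col9a2 by 2.10). Thbs4 in TAP-like cells, at 24.7 and 14.9 CPM, was at about its level in endothelial-like cells. Higher in TAP-like cells were Col4a4, at 8.17 and 5.98 CPM against 4.57 and 2.31 CPM (1.17 ± 0.27, adjusted p = 0.0049), Itga1, at 2.97 and 4.61 CPM against 1.67 and 2.31 CPM (1.06 ± 0.35), and Col11a1 (0.60 ± 0.14). Col2a1 (1.46, adjusted p = 0.1) and Col25a1 (-0.32) were tested and did not pass. Without the library as a block 0 of 40 members passed, where 297 of 13457 genes were higher and 56 lower. With DESeq2 3 passed, where 1264 genes were higher and 727 lower. The result depended on how cells were chosen. By the marker thresholds of the methods in place of clusters, 2 of 36 members were higher and 30 lower. Of 13005 genes 2881 were then higher and 2965 lower. The medians were -1.43 for members and -0.02 for all genes. Col4a4, Col11a1 and Itga1 had turned to -1.78, -0.98 and -3.12.

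Within qNSC-like cells, members differed between the clusters called pallial and subpallial from regional genes. All cells came from the dorsal wall, and no position in it was recorded. Pallial qNSC-like cells (2714 and 1774) were set against subpallial ones (667 and 751). Of 50 members tested 19 were higher and 9 lower in pallial cells, where 14.9% of all genes were higher and 16.2% lower, and the median log2 fold change was 0.35 for members and 0.01 for all genes. Of 35 collagens, laminins, thrombospondins and tenascins tested, 17 were higher and 5 lower in pallial cells, and of 15 integrin chains 2 were higher and 4 lower.

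Col23a1 stood at 33.3 and 38.6 CPM in pallial cells, against 5.24 and 5.43 CPM in subpallial cells (log2 fold change 2.75 ± 0.12, adjusted p = 6.4e-09, edgeR). Thbs4 was at 665 and 794 CPM against 294 and 312 CPM (1.25 ± 0.06, adjusted p = 1.5e-08). The collagen receptor chain Itga1 was at 32.6 and 34.0 CPM against 8.29 and 6.89 CPM (2.14 ± 0.12, adjusted p = 5.1e-08), and Col4a4 at 43.6 and 31.9 CPM against 14.4 and 8.88 CPM (1.70 ± 0.10, adjusted p = 1.1e-07). Both tenascins were higher in pallial cells, Tnc by 1.24 and Tnr by 1.69 on the log2 scale, with the pallial cells above the subpallial ones within each library. Col9a3 and Col9a1, chains of the same type IX collagen, had 1.69 and 2.01 (Col9a1 2.75 without replicate 1 and 1.32 without replicate 2), while the third chain, Col9a2, went the other way with -0.48. Col1a2, Col11a1, Col11a2 and Col27a1 had 0.77, 0.89, 0.47 and 0.61. The basement membrane genes Col4a1, Col4a2, Col4a6, Lama2, Lamb2 and Lamc1 were all higher in pallial cells, between 0.40 and 1.00, and so was Itga2b with 0.93.

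Lower in pallial cells was first Itgb8, at 65.5 and 111 CPM against 93.7 and 172 CPM in subpallial cells (log2 fold change -0.59 ± 0.06, adjusted p = 8.6e-06, edgeR). Its ranges overlap across libraries, though the order was the same within each. The laminin receptor chain Itga7 was at 0.829 and 0.819 CPM, against 3.78 and 5.95 CPM (-2.55 ± 0.29, adjusted p = 3.3e-05). Col1a1 (-1.47), Col5a2 (-0.56), Itgb1 (-0.20), Thbs3 (-0.21) and Itgb4 (-1.09) were lower as well. Col6a3, a chain of the microfibrillar type VI collagen, was at 0.0377 and 0.137 CPM against 1.34 and 0.948 CPM (-3.66 ± 0.68, adjusted p = 0.0013, and -2.58 and -4.36 without replicates 1 and 2). Not passing were Col4a5 (0.11), Itgb5 (-0.11), Itgav (0.17), Itga6 (0.09), Col16a1 (-0.10) and 17 others. Without the library as a block 4 members passed, where 132 of 14302 genes were higher and 142 lower.

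Of the pallial qNSC-like clusters, the one richest in Hopx (1856 and 1189 cells), a gene of quiescent stem cells and astrocytes, was set against the other (858 and 585 cells). Of 46 members tested 13 were higher and 4 lower in the Hopx-richest cluster, where 9.98% of all genes were higher and 8.24% lower. The median log2 fold change was 0.04 for members and 0.00 for all genes. Thbs4 stood at 832 and 1001 CPM in the Hopx-richest cluster, against 314 and 395 CPM in the other (log2 fold change 1.41 ± 0.04, adjusted p = 3.8e-238, edgeR). Col9a3 (45.2 and 39.9 CPM against 17.3 and 14.7 CPM, 1.44 ± 0.10, adjusted p = 2.6e-44) and Col9a1 (41.4 and 55.5 CPM against 23.5 and 22.9 CPM, 1.07 ± 0.09) were higher with it. So were Tnr, Thbs1, Col11a2, Col16a1, Col12a1, Itga1, Itga5, Itga6, Col4a4 and Lama2, between 0.21 and 1.18. Lower were Col23a1, at 26.0 and 33.9 CPM against 48.6 and 47.7 CPM (-0.67 ± 0.08, adjusted p = 1.9e-14), Col11a1 (-0.59), Thbs3 (-0.33) and Col9a2 (-0.34). Tnc (-0.02), Itgb1 (-0.02) and Itgb8 (0.14) did not pass. Without the library as a block 0 members and 0 of 13593 genes passed. With DESeq2 9 members passed, where 297 genes were higher and 256 lower.

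Astrocyte-like cells (252 and 312 cells) were set against qNSC-like cells. Of 49 members tested 16 were higher and 16 lower, where 19.1% of all genes were higher and 19.7% lower, and the medians were -0.08 for members and -0.01 for all genes. Of 14 integrin chains tested 7 rose and 2 fell. The extent of this class also depends on the clustering. With no gene held out, 455 and 397 cells took the name. Then 12 of 49 members rose and 18 fell, where 2860 of 14770 genes rose and 2906 fell.

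Laminin receptor chains were among the members that rose. Itga6 stood at 106 and 142 CPM in astrocyte-like cells, against 21.5 and 28.9 CPM in qNSC-like cells (log2 fold change 2.35 ± 0.09, adjusted p = 1.6e-58, edgeR). Itga7 was at 12.9 and 26.0 CPM against 1.53 and 2.59 CPM (3.28 ± 0.24, adjusted p = 3.8e-27), and their partner Itgb1 at 216 and 259 CPM against 109 and 143 CPM (0.97 ± 0.08, adjusted p = 8.1e-25). Itga2 (1.90), Itgav (0.77), Itgb8 (0.76) and Itga5 (0.77, and 0.11 without replicate 2) rose too. Tnr was at 71.6 and 105 CPM against 22.3 and 42.9 CPM (1.50 ± 0.09, adjusted p = 2.2e-33), and Tnc at 227 and 368 CPM against 114 and 252 CPM (0.81 ± 0.08), with Tnc ranges that overlap. Col16a1, Col9a3, Col9a1, Col4a1, Col5a3, Lama4 and Lamb3 rose by 0.74, 0.75, 0.62, 0.70, 2.76, 2.34 and 2.85 (with no gene held out of the clustering, Col9a1 had -0.061). Lama4, an alpha chain of vessel laminins, was at 2.41 and 2.50 CPM and Lamb3, a laminin beta chain of epithelia, at 0.602 and 0.963 CPM in astrocyte-like cells (Lamb3 3.58 without replicate 1 and 1.70 without replicate 2). By the gates described further on, the astrocyte-like cluster held 1 mural-like cell in replicate 1 and 1 endothelial-like cell in replicate 2. Their part in the astrocyte-like values, low ones such as Lama4 above all, was not tested.

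Thbs4 fell, to 137 and 226 CPM in astrocyte-like cells, against 577 and 627 CPM in qNSC-like cells (log2 fold change -1.69 ± 0.09, adjusted p = 1.3e-40, edgeR). Col4a4 was at 10.2 and 4.05 CPM against 36.7 and 23.9 CPM (-2.11 ± 0.18, adjusted p = 8.2e-22), and Col1a2 at 39.4 and 26.4 CPM against 79.2 and 63.8 CPM (-1.09 ± 0.10, adjusted p = 1.4e-18). Col9a2 fell by 1.52, so that the type IX chains again did not move as one. Col23a1, Col11a2, Col11a1, Col5a2, Col27a1, Col4a5, Col4a6, Lama2, Lama5, Lamb2, Itga1 and Itga2b fell by 0.27 to 1.34. Col20a1 (1.63, adjusted p = 0.064), Itgb5 (-0.08) and Itga10 (-0.87) did not pass. Without the library as a block 13 members passed, where 711 of 14660 genes were higher and 574 lower.

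Ependymal-like cells (402 and 248), the multiciliated cells that line the ventricle, were set against qNSC-like cells in the same way. Of 52 members tested 14 rose and 10 fell, where 12.7% of all genes rose and 9.85% fell, with medians of 0.09 for members and -0.02 for all genes. Thbs1 stood at 23.0 and 42.4 CPM in ependymal-like cells, against 7.80 and 9.06 CPM in qNSC-like cells (log2 fold change 1.90 ± 0.17, adjusted p = 1.1e-10, edgeR). Col8a2, a short-chain collagen known from the basement membrane of the cornea, was at 4.90 and 5.67 CPM against 0.547 and 0.268 CPM (3.67 ± 0.47, adjusted p = 1.7e-07, and 4.28 without replicate 1). Thbs4 was at 821 and 818 CPM against 577 and 627 CPM (0.44 ± 0.06, adjusted p = 4e-07). Itgb4, the beta chain that pairs with alpha6 in epithelia, was at 4.69 and 6.48 CPM against 1.24 and 0.953 CPM (2.32 ± 0.39). Col12a1, Col22a1, Col5a3, Col26a1, Col4a1, Col4a4, Tnr, Itga9, Itga2b and Lama5 rose by 0.53 to 2.53 (Col26a1 by 2.02, and 1.42 without replicate 2). Tnc fell, to 52.2 and 110 CPM against 114 and 252 CPM (-1.17 ± 0.08, adjusted p = 9.1e-14), and Col23a1 to 8.95 and 11.6 CPM against 26.7 and 27.1 CPM (-1.41 ± 0.17). Col11a1, Col11a2, Col9a1, Col4a5, Lama2, Itga6, Itgav and Itgb5 fell by 0.24 to 0.84. Itga3 (0.99), Itga8 (0.62), Col17a1 (0.61), Col7a1 (-0.89) and Col6a2 (0.49) were tested and did not pass. Without the library as a block 6 members passed, where 528 of 14752 genes were higher and 65 lower. With DESeq2 12 passed, where 1027 genes were higher and 440 lower. The ependymal-like cluster also held the qNSC gene Hopx at 572 CPM, against 785 and 320 CPM in the pallial qNSC-like clusters, and its part in these values was not tested. The extent of this class depends on the clustering. With no gene held out, 174 and 143 cells took the name, and with 2500 to 7500 detected genes 237 and 174. With no gene held out, 14 of 51 members rose and 12 fell, where 2201 of 14605 genes rose and 1839 fell.

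Set directly against astrocyte-like cells, ependymal-like cells had 16 members higher and 13 lower of 44 tested, where 21.6% of all genes were higher and 20.5% lower. The medians were 0.00 for members and -0.01 for all genes. Thbs4 (821 and 818 against 137 and 226 CPM), Col4a4 (51.4 and 41.9 against 10.2 and 4.05 CPM) and Thbs1 (23.0 and 42.4 against 4.82 and 6.36 CPM) were higher, with log2 fold changes of 2.14, 2.73 and 2.50 (edgeR, adjusted p of 5.9e-09, 5.4e-08 and 1.7e-07). Col8a2 had 0 UMIs in astrocyte-like cells of both libraries, where 3 UMIs would have been 0.903 and 0.578 CPM. Itga1, Itga2b, Itgb4, Col1a2, Col5a2, Col9a2, Col12a1, Col22a1, Col26a1, Col4a6, Lama5 and Lamb2 were also higher (Col9a2 by 1.18, and 0.54 without replicate 1, and Col26a1 by 2.63, and 1.96 without replicate 2). The laminin receptor chains were lower: Itga6 at 13.2 and 20.8 CPM against 106 and 142 CPM (-2.93 ± 0.13, adjusted p = 6.5e-11), Itga7 at 0.853 and 1.08 CPM against 12.9 and 26.0 CPM (-4.31 ± 0.36, adjusted p = 8.3e-08). So were Itgb1 (-1.15), Itgav (-1.16), Itga2 (-1.68), Itgb8 (-0.68), Tnc (-1.97), Tnr (-0.99), Col9a1, Col9a3, Col16a1, Col1a1 and Lama4 (-2.44, with -4.47 and -1.43 without replicates 1 and 2). Comparisons that share a class share its cells, so that their values are not independent of each other.

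**Figure D3:**
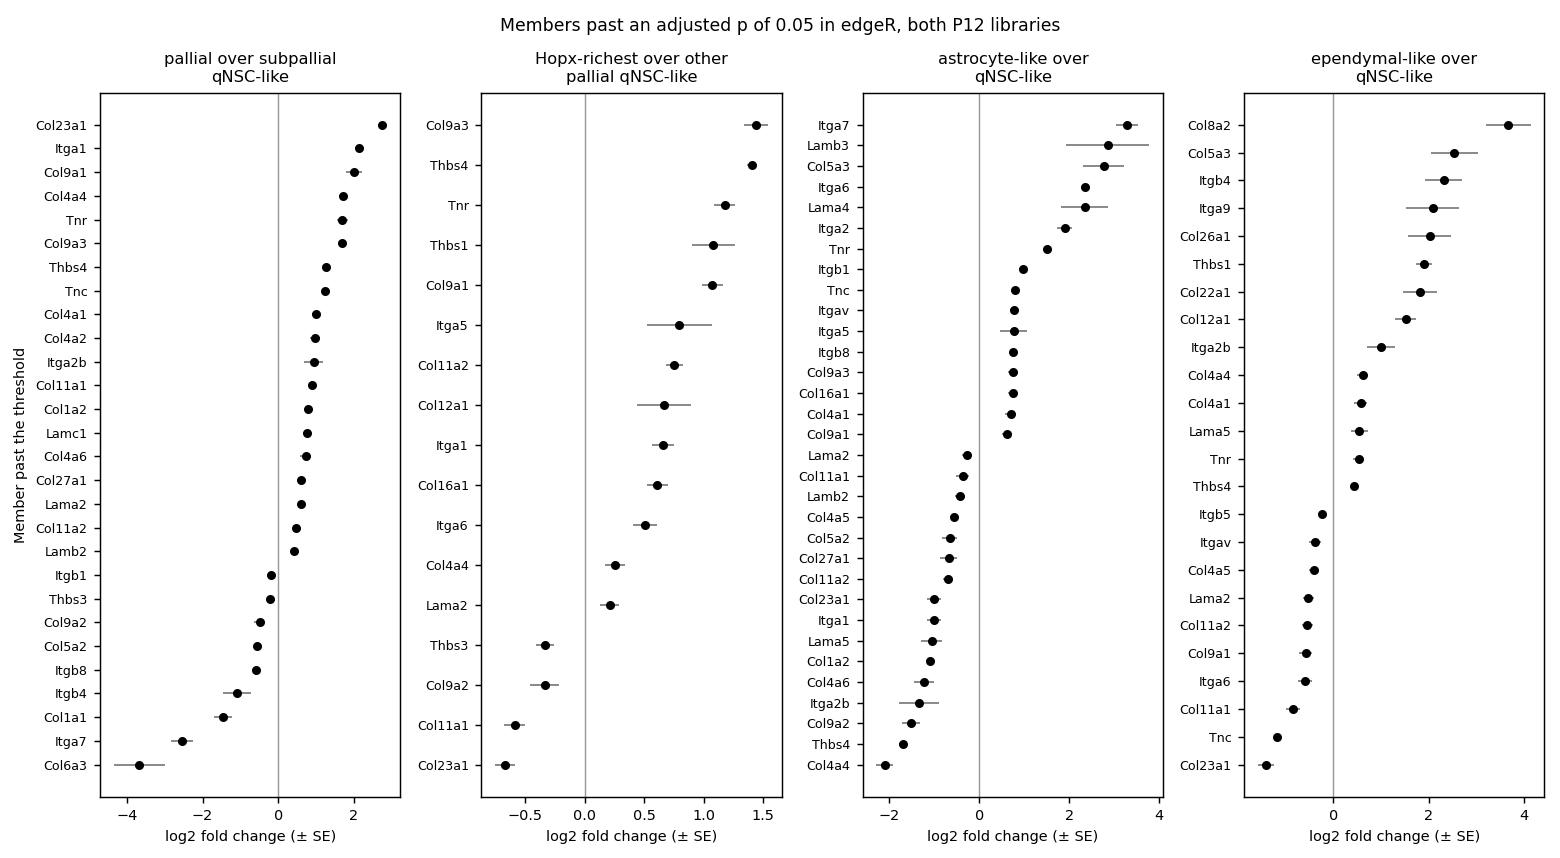
Log2 fold changes with standard errors (edgeR, both P12 libraries, library as block) of the members past an adjusted p of 0.05 in 4 comparisons, 1 panel each and each with its own axis, ordered by size. Thbs4 lies right of 0 in the pallial, Hopx-richest and ependymal-like panels and left of it in the astrocyte-like panel (-1.69), where Itga7 (3.28) and Itga6 (2.35) stand out on the right.

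Genes that make, modify or bind this matrix were counted in the same comparisons. In aNSC-like against qNSC-like cells 33.2% of all genes rose and 34.5% fell. Among the basement membrane partners, 2 of 13 tested rose and 9 fell, with Sparc, a collagen-binding matricellular protein, at -3.08 and Agrn, the heparan sulphate proteoglycan agrin, at -1.31 among those that fell, while Smoc1 rose by 3.94. In the same comparison 0 of 11 genes of the hyaluronan and lectican matrix rose and 8 fell, among them the link protein gene Hapln1 (-3.58) and brevican, Bcan (-2.23). Of the collagen-processing enzymes and chaperones 5 rose and 12 fell of 22, with the prolyl hydroxylase chain P4ha3 at -3.29. Of the cytoplasmic adhesion machinery 5 rose and 11 fell of 21, with Flna (filamin A) at 1.14 and Vcl (vinculin) at -2.73. Of the proteases and their inhibitors 4 rose and 10 fell of 20, with Timp3 at -3.49 and Mmp24 at 2.76. Outside the members, the integrin ligands split too: Fn1 (fibronectin) and Edil3 rose by 1.83 and 3.54 and Cyr61 fell by 3.78, with 2 of 10 higher and 5 lower.

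In astrocyte-like against qNSC-like cells, where 19.1% of all genes rose and 19.7% fell, 13 of 22 collagen-processing genes rose and 0 fell, with Plod2, a lysyl hydroxylase, at 1.21 and P4ha1, a prolyl hydroxylase chain, at 0.92. Of the hyaluronan and lectican genes 7 rose and 1 fell of 12, with Hapln1 at 2.33 and neurocan, Ncan, at 2.38. Of the basement membrane partners 8 rose and 4 fell of 14, with Nid1 (nidogen) at 3.40 and Sparc at -1.75. In ependymal-like against astrocyte-like cells (21.6% of all genes higher and 20.5% lower) 7 of 9 hyaluronan and lectican genes were lower and 1 higher, Ncan by -3.19 among the lower. In ependymal-like against qNSC-like cells (12.7% higher and 9.85% lower) 6 of 11 were lower and 0 higher. In TAP-like against aNSC-like cells (16.7% higher and 14.9% lower) 8 of 21 collagen-processing genes were lower, among them the collagen chaperone Serpinh1 (-0.53), and 2 higher. Between pallial and subpallial qNSC-like cells, where 14.9% of all genes were higher and 16.2% lower, the lists split, with 8 higher and 4 lower of 22 collagen-processing genes and 2 higher and 5 lower of 14 basement membrane partners. In the Hopx-richest cluster (9.98% higher and 8.24% lower) 6 of 20 genes of the adhesion machinery were higher and 2 lower, with Actn1 (alpha-actinin) at 0.88 and Vcl at 0.32.

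Vascular cells and microglia were few, and were found by a gate of at least 4 markers among cells with at least 500 genes, as a description with no test. The gate found 60 endothelial-like, 40 mural-like and 111 microglia-like cells, 1 fibroblast-like cell (at P22) and 0 choroid plexus-like cells. Members made up 0.569% of the UMIs of endothelial-like and 0.581% of those of mural-like cells, 0.196% in microglia-like cells and 4.61% in the fibroblast-like cell, against 0.100% in ungated cells, the cells that fell in none of these gates and that all values below are set against. With a gate of 6 markers, 24 mural-like cells were left and the share was 1.22%.

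In endothelial-like cells 15 of 23 members were at least 10-fold above ungated cells, with intervals apart, where 7.61% of all genes were. Lama4 stood at 294 CPM against 0.709 CPM in ungated cells, Col4a1 at 1618 CPM against 14.9 CPM, and Lamb1 at 103 CPM against 0.499 CPM. These are chains of vessel basement membrane. The receptors on the list were Itga1, Itga2b, Itga3, Itga4, Itga5 and Itga6, and the other matrix genes Col4a2, Col4a3, Col18a1, Lama1, Lama5 and Lamc1. Lama1, with 11 UMIs, and Col4a3, with 10, rest on few molecules. Replicate 2 of P12 holds 31 of the 60 cells and 72 of the 77 Lamb1 UMIs. Without that library 9 members passed, with Lamb1 at 20.3 CPM (5 UMIs, too few for a call), Lama4 at 166 CPM and Lamc1 at 114 CPM (9.03-fold). Itga4 was at 93.3 CPM without it, against 175 CPM with it, and Itga2b, Itga3, Lama1 and Col4a3 then had too few UMIs for a call. Without P22 10 members passed and Itga6, Lama5, Itga3, Lama1 and Col4a3 did not, without P2 Lama5 and Col4a3 did not, and without replicate 1 of P12 Col4a3 did not. Some of these genes were at least as high in mural-like cells, Itga1 with 809 CPM against 285 CPM in endothelial-like cells and Lamc1 with 376 CPM against 227 CPM.

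In mural-like cells, which wrap vessels, 16 of 33 members passed, where 4.99% of all genes did. Col3a1 had 64 UMIs there (125 CPM), against 0.0159 CPM in ungated cells, and Lamc3 34 UMIs (66.3 CPM) against 0.0191 CPM. Ungated cells held 5 and 6 UMIs of them, and the single fibroblast-like cell 74 and 12. Col1a1 was at 168 CPM against 1.10 CPM, Itga1 at 809 CPM against 9.67 CPM, and Lamc1 at 376 CPM against 15.3 CPM. The rest were Col4a1, Col4a2, Col5a3, Col8a1, Col18a1, Col26a1, Col28a1, Lama4, Lamb1, Itga4 and Itga7. The libraries differed: in the 12 mural-like cells of P2 Itga1 stood at 58.9 CPM, against 2082 and 1235 CPM at P12 and 1745 CPM at P22. Of these P2 cells 3 lay in the endothelial-like cluster and the others mostly in qNSC-like and ependymal-like clusters. Without P2, Itga1 was at 1653, Col3a1 at 224, Lamc3 at 120, Col1a1 at 278 and Lamc1 at 704 CPM, the other members that passed were higher too, Col8a1 missed the limit and Col1a2 passed. Without P22 11 members passed, Col3a1 was at 81.5 and Lamc1 at 250 CPM, and Itga7, Col5a3, Col8a1, Col18a1 and Col28a1 did not pass. Without replicate 1 of P12 Col26a1 was at 26.1 CPM against 42.9 CPM with it, and Col8a1 and Col28a1 did not pass, and without replicate 2 Col28a1 did not.

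In microglia-like cells 7 of 16 members passed, where 7.26% of all genes did. Itgb2, the beta chain of leukocyte integrins, had 181 UMIs there (155 CPM), against 0.00953 CPM in ungated cells. Itgb5 was at 904 CPM against 44.3 CPM, in 1055 UMIs, and Col27a1 at 164 CPM against 6.24 CPM. Col15a1, Itgb3, Col6a3 and Itga9 had 26, 19, 10 and 31 UMIs. P22 holds 80 of the 111 cells and 169 of the 191 Col27a1 UMIs, and without it Col27a1 was at 77.5 and Itgb2 at 88.1 CPM, while Col15a1, Itgb3, Col6a3 and Itga9 had too few UMIs and 3 members passed. Without either P12 library Col6a3 had too few. The single fibroblast-like cell held 150 Col4a1, 87 Col1a1, 86 Col15a1, 84 Col1a2, 80 Col4a2 and 74 Col3a1 UMIs of its 18854. It is 1 cell and stands for no class.

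Between ages there was 1 library at P2 and 1 at P22, so no test was made. A member counts as higher or lower at P22 where its CPM differed at least 2-fold, its exact 95% Poisson intervals did not overlap and both libraries held at least 10 UMIs together. These intervals cover counting error only. P12 was processed with another version of Cell Ranger than P2 and P22, whose headers name the same one, and P12 values are given beside the pair.

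Cells of P2 and P22 took their class names by label transfer from P12. The paper describes pallial qNSCs as virtually absent at P2, and whether the P2 cells named qNSC-like here were quiescent was not tested. Differences by age may thus be between unlike cells of 1 name. In qNSC-like cells (607 at P22, 441 at P2) 3 of 44 members were higher and 14 lower at P22, where 7.36% of all genes were higher and 5.87% lower. The median log2 ratio was -0.64 for members and 0.02 for all genes. Thbs4 had 16 UMIs at P2 (2.20 CPM), was at 577 and 627 CPM at P12 and had 2901 UMIs at P22 (514 CPM), 234-fold above P2. The change was seen in pallial cells, at 747 CPM at P22 against 4.17 CPM at P2, and in subpallial cells, at 378 against 0.908 CPM. In pallial cells 3 of 35 members were higher and 9 lower at P22 (6.98% and 5.66% of all genes), and in subpallial cells 3 and 13 of 39 (6.40% and 5.52%). Tnr had 2 UMIs at P2, was at 22.3 and 42.9 CPM at P12 and at 12.0 CPM at P22, at least 29.2-fold above the floor of 3 UMIs at P2. Col11a2 was at 4.26 CPM at P2, 44.7 and 63.6 CPM at P12 and 23.6 CPM at P22, 5.53-fold above P2. All 3 were thus highest at P12 and lowest at P2.

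Members lower at P22 included collagen, laminin and integrin chains. Tnc was at 275 CPM at P2, 114 and 252 CPM at P12 and 47.1 CPM at P22, 5.83-fold below P2. Thbs3 followed with 86.9 CPM at P2, 55.7 and 35.1 CPM at P12 and 20.7 CPM at P22, and Itgb1 with 193, then 109 and 143, then 79.9 CPM. So 2 thrombospondin family members went opposite ways with age. The largest folds below P2 were those of Col22a1 (13.2), Col12a1 (13) and Col6a3 (12.9), each with 3 or 4 UMIs left at P22. Col4a4, Col4a5 and Col4a6 were 3.51-, 2.95- and 3.65-fold lower at P22 than at P2 (Col4a5 and Col4a6 lie on the X chromosome, and the part of sex was not tested), and Itga2, Itga7, Col11a1 and Lamc1 4.34-, 3.62-, 2.05- and 2.00-fold. Lama1 had 0 UMIs at P22 and 11 at P2, at least 2.84-fold lower. Pallial qNSC-like cells of P22 were mostly of the Hopx-richest cluster (212 of 272 cells) and those of P2 mostly of the other (189 of 194). Within that other cluster (60 cells at P22, 189 at P2) 3 of 31 members were higher and 5 lower, where 4.85% and 4.50% of all genes were. There Thbs4 (149-fold) and Col11a2 (9.38-fold) were higher at P22 and Tnc (4.22-fold), Itgb1 (3.99-fold), Col4a5 (3.41-fold), Thbs3 (2.89-fold) and Col11a1 (2.21-fold) lower. Col23a1 was higher too, 3.21-fold, at 42.3 CPM at P22 against 13.2 CPM at P2.

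**Figure D4:**
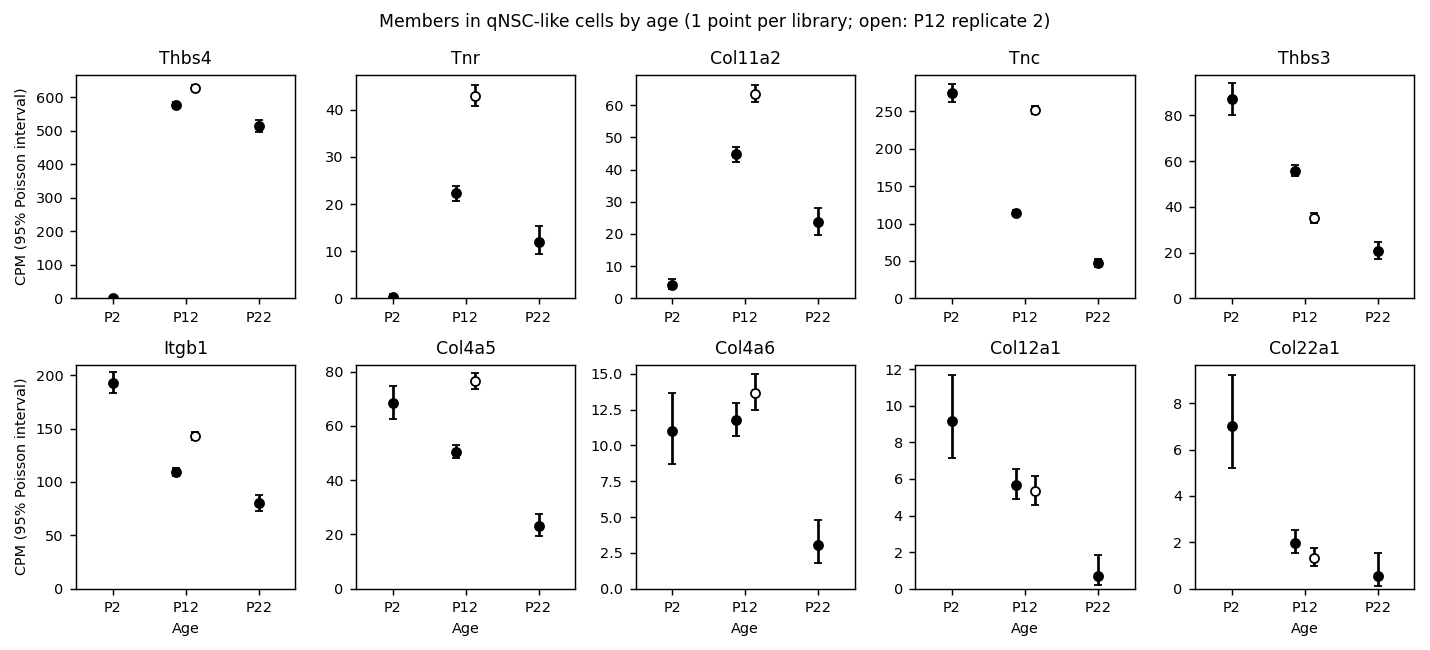
CPM of 10 members in qNSC-like cells at P2, P12 (replicate 1 filled, replicate 2 open) and P22, 1 point per library with its exact 95% Poisson interval, each panel on its own axis from 0. Thbs4, Tnr and Col11a2 are lowest at P2 and highest at P12, and Tnc, Thbs3, Itgb1, Col12a1 and Col22a1 are highest at P2 and lowest at P22.

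Thbs4 and Tnc also differed by age in other classes. Tnc was lower at P22 than at P2 in aNSC-like cells (0.814 against 14.9 CPM), TAP-like cells (1.11 against 5.45 CPM), astrocyte-like cells (35.9 against 262 CPM) and ependymal-like cells (11.3 against 122 CPM, from 3 UMIs at P22). Thbs4 was higher in astrocyte-like cells, at 112 CPM at P22 against 0 UMIs at P2 (at least 32.3-fold), and in ependymal-like cells, at 550.0 CPM against 41.3 CPM. In aNSC-like, TAP-like and GABAergic neuroblast-like cells Thbs4 was at 6.40, 5.78 and 6.69 CPM at P22, where microglia-like cells held it at 2.52 CPM (2 UMIs). In aNSC-like cells 3 of 31 members were higher and 3 lower at P22, where 2.36% and 2.27% of all genes were, Tnr and Col23a1 among the higher and Thbs3 and Lamc1 among the lower. In TAP-like cells 2 of 39 were higher and 5 lower, where 2.46% and 3.23% were, with Tnr higher and Thbs3, Itga5, Col4a5 and Col12a1 lower. In astrocyte-like cells (110 at P22, 48 at P2) 2 of 27 were higher and 5 lower, where 6.25% and 7.57% were, with Col11a2 higher and Col12a1, Thbs3, Col4a5 and Col9a3 lower beside Tnc. In ependymal-like cells (25 at P22, 49 at P2) 2 of 28 were higher and 2 lower, where 5.95% and 4.23% were, with Tnr higher and Itgb1 lower. In glutamatergic neuroblast-like cells (59 at P22, 316 at P2) 2 of 23 were higher, Lama2 and Thbs4, and 0 lower, where 4.16% and 3.42% were. In the unnamed cluster 4 it was 4 higher and 8 lower of 33 (4.85% and 4.49% of all genes).

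In oligodendroglial-like cells (389 at P22, 171 at P2) 13 of 39 members were higher and 3 lower at P22, where 11.3% of all genes were higher and 7.89% lower. The median log2 ratio was 0.86 for members and -0.04 for all genes. Itgb4 had 280 UMIs at P22 (35.8 CPM), 8 at P12 in replicate 1 and 1 at P2, at least 42.4-fold higher at P22. Its alpha partner Itga6 stood at 1.92 CPM at P22 against 3.66 CPM at P2. Itgb7, known from lymphocytes, had 234 UMIs at P22 (29.9 CPM), 1 at P12 and 11 at P2 (3.09 CPM), 9.66-fold higher at P22. Thbs3 was at 25.7 CPM at P22 against 1.12 CPM at P2, the reverse of its order in qNSC-like cells. Tnr, which oligodendrocyte lineage cells are known to make, was at 268 CPM at P2, 551 CPM in P12 replicate 1 and 625 CPM at P22. Col9a1, Col11a2, Col20a1, Col27a1, Col6a2, Lama2, Lama4, Itgav and Itga9 were higher as well, 2.08- to 6.66-fold (for Lama2 and Col6a2 a lower bound), and Tnc, Thbs2 and Col26a1 lower, 8.81-, 3.73- and 2.70-fold. Col9a3 was at 489 CPM at P22, 246 CPM in P12 replicate 1 and 246 CPM at P2.

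GABAergic neuroblast-like cells (1398 at P22, 1722 at P2) had 3 members higher and 14 lower of 44, where 4.27% of all genes were higher and 9.05% lower. Col25a1, a transmembrane collagen of neurons, had 8 UMIs at P22 (0.595 CPM) and 115 at P2 (5.92 CPM), 9.95-fold lower at P22. Laminin chains were lower beside it: Lamb1 at 0.669 CPM at P22 against 3.34 CPM at P2, Lamb3 with 3 against 23 UMIs and Lama1 with 1 against 19 UMIs. Lama3, a laminin alpha chain of epithelia, had 0 UMIs at P22 and 2 at P2, too few for a call. Col4a1, Col4a2, Col4a5, Col6a1, Col8a1, Col9a2, Tnc, Thbs1 and Thbs3 were also lower at P22. Col4a4 and Col5a2 were higher, 2.30- and 2.44-fold.

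Over all kept cells 17 of 74 members were higher and 15 lower at P22, where 7.82% of all genes were higher and 6.79% lower, and these counts mix levels with the make-up of the library. Without the 96 gated rare cells of P22 and 13 of P2, 10 were higher and 20 lower of 70 (5.61% and 7.22% of all genes). Of the kept P22 UMIs, 155 of 157 for Itgb2, 82 of 84 for Col3a1, 105 of 110 for Col15a1 and 23 of 24 for Lamc3 lay in gated cells, 74 of the Col3a1 and 86 of the Col15a1 UMIs in the single fibroblast-like cell. Col1a1, Col27a1, Col5a3 and Itgb3 lost their call without these cells. Itgb4, Itgb7, Col20a1 and Itga9 kept it, 13.7-, 17.9-, 11.8- and 2.87-fold higher at P22, and of the 308 Itgb4, 242 Itgb7 and 5193 Tnr UMIs of kept P22 cells 280, 234 and 4891 lay in oligodendroglial-like cells. Itga10 was higher, with 33 UMIs at P22 against 7 at P2, and Col9a3 2.02-fold. Among the lower were Col22a1 (11.3-fold), Col25a1 (10.1-fold), Tnc (8.57-fold), Thbs1 (7.81-fold) and Col8a1 (5.47-fold).

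**Figure D5:**
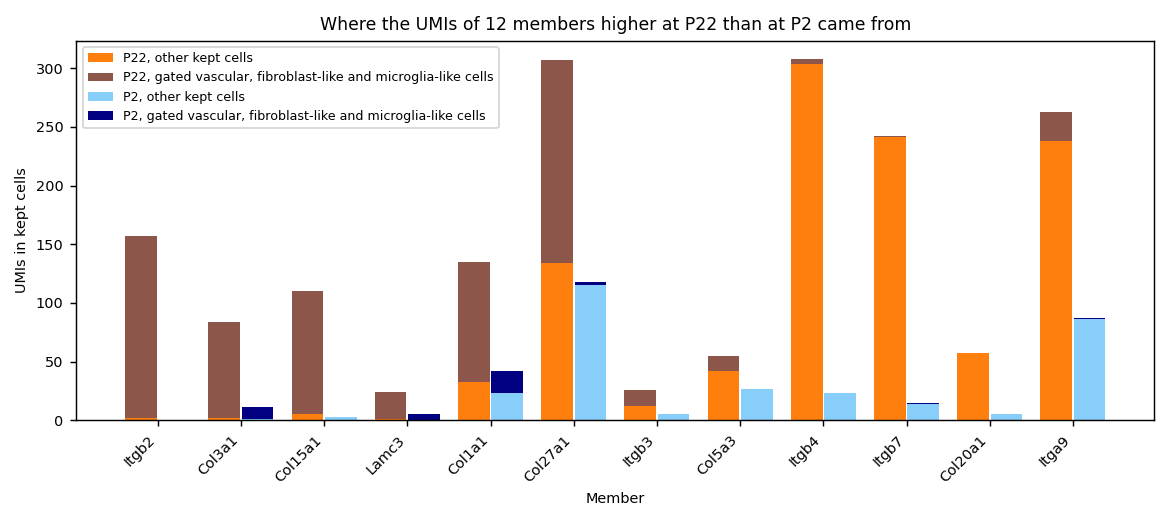
UMIs of 12 members in kept cells at P22 (left bar of each pair) and P2 (right bar), split into those in gated endothelial-like, mural-like, fibroblast-like and microglia-like cells (dark) and those in all other kept cells (light). The P22 bars of Itgb2, Col3a1, Col15a1 and Lamc3 are almost wholly dark, and those of Itgb4, Itgb7, Col20a1 and Itga9 mostly light.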

How the data were processed

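The authors deposited unnormalised UMI count matrices, 1 per library, made with Cell Ranger on mm10. The headers give version 5.0.1 for P2 and P22 and 3.1.0 for P12, and the labels list 3.1.0. Counts are of 3′ ends. P12 cells of both libraries were integrated and clustered with Seurat 5.3.0 (2000 variable genes, 20 components, resolution 0.5), with 214 genes, the members and their pathway lists among them, held out of the clustering genes, and P2 and P22 cells took their class by label transfer. Classes were still drawn from the same cells as the tests. UMIs were summed by class and P12 library and tested with edgeR 4.0.16 in R 4.3.3 by its quasi-likelihood test, after filterByExpr and TMM scaling, with the library as a block. Adjustment was by Benjamini-Hochberg across every gene tested, with a threshold of 0.05. The block pairs classes that come from the same library, and so from the same tissue. With 2 libraries the fit leaves 1 residual degree of freedom per gene, so p-values lean on the spread shared among genes. The methods were tested on simulated data. Doublets were scored but not removed, since the caller marked 0.0653% of the cells of P12 replicate 2 and so did not work there. Members and lists were chosen with earlier results of these data known. 1 member enters the counts but is not reported here, and every other member is named; full values go to at most 15 members per direction and tested comparison, by adjusted p, 12 per age or rare-cell description, by fold, and 3 genes per pathway list. Alternatives were RLE factors, no filter, no block, DESeq2 1.42.0, other cell filters, clustering with no gene held out, the marker thresholds of the methods and each replicate left out.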

Additional observations from a re-analysis of the deposited data

How the results depend on the processing

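For the number of calls the library block mattered most: without it 107 of 179 member calls no longer passed, and 0 reversed. For direction the choice of cells mattered more: marker thresholds reversed 5 of the 49 calls they covered. With no replicate block, 0 of 40 members passed in TAP-like against aNSC-like cells, where 297 of 13457 genes were higher and 56 lower. In pallial against subpallial qNSC-like cells 4 of 50 passed (132 and 142 of 14302 genes). In the Hopx-richest against the other pallial cluster 0 of 46 members and 0 of 13593 genes passed. Against qNSC-like cells, 13 of 49 passed in astrocyte-like cells (711 and 574 of 14660 genes) and 6 of 52 in ependymal-like cells (528 and 65 of 14752). Fewer genes passed at large, not members alone. The pairing comes from the shared tissue of a library. With DESeq2, 3, 9 and 12 members passed for TAP-like, Hopx-richest and ependymal-like (against qNSC-like) cells. Of all genes 1264 were higher and 727 lower, 297 and 256, and 1027 and 440 in these comparisons. With marker thresholds 32 of 36 members passed for TAP-like cells, where 2881 of 13005 genes were higher and 2965 lower. Single members reversed under marker thresholds: Col11a1 (0.071) and Col4a1 (-0.066) in aNSC-like against qNSC-like cells, and Col4a4 (-1.78), Col11a1 (-0.98) and Itga1 (-3.12) in TAP-like against aNSC-like cells. With no gene held out of the clustering, Col9a1 in astrocyte-like against qNSC-like cells was at -0.061. The cause was not tested. By age, 17 members were called in qNSC-like cells, 32 over all kept cells and 30 without the gated rare cells. Gated endothelial-like, mural-like and microglia-like cells had 38 calls, and 24 to 36 with a library left out, fewest without P22. The count without P2 includes Col1a2 in mural-like cells, which was not among the 38. The settings without gated cells or a library, and UMIs per cell, were chosen after seeing the data. With at least 6 markers the mural-like gate held a member share of 1.22%. The members called kept their direction in each library alone, which has no test.

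Depth limits rare members: in the classes with few cells a count of 0 does not show that a gene is absent. P2 and P22 have 1 library each, so age and library cannot be told apart, and cells were not assigned to the animals behind a library.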
